A study of Mus musculus with 2 samples.

Results

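Lipid-associated macrophages were taken from single-cell RNA-Seq of livers of mice fed a high-fat, high-sugar diet (HF/HSD), and they were 495 of the 6116 deposited cells. The cells were chosen by their own counts. A cell was kept when it had at least 100 genes, at most 10% mitochondrial counts and at least 3000 counts in all, which left 4878 cells. Among these, 911 were selected as macrophages, with at least 5 counts per 10000 of the myeloid genes Siglec1, Tbxas1, Fyb, Lair1 and Lilrb4a together, and more than 2 times the summed counts of the endothelial genes Egfl7, Ushbp1 and Ptprb and of the stellate cell genes Reln, Pdgfrb and Lrat. A macrophage-selected cell was called a lipid-associated macrophage when Gpnmb, Mmp12 and Itgax together (the L score) reached at least 5 counts per 10000, and these cells are called the members. The other 416 macrophage-selected cells are called L-low macrophages.

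The study deleted AEG-1, the product of Mtdh, from myeloid cells. Floxed mice on a C57BL/6J background were crossed with LysM/Cre mice, in which the Lyz2 locus drives Cre in myeloid cells, to give AEG-1DMAC mice, and AEG-1fl/fl littermates were the comparison group, so both groups carried floxed alleles. HF/HSD feeding began at 7 weeks of age and lasted 20 weeks, so the mice were 27 weeks old at collection. There was 1 library per genotype, made from fixed and dissociated liver pieces with a probe-based assay, in which probes bound to the transcripts of each gene are counted per cell. The sources used here do not state whether a library pools several livers, or the sex of its mice. The Y-linked gene Ddx3y was read at 104 counts per 1000000 (CPM) in the AEG-1DMAC-labelled and 96.9 CPM in the AEG-1fl/fl-labelled members, a log2 ratio of 0.10 (95% interval -0.25 to 0.43), so Y-linked RNA was present in both. With 1 library a genotype there was no test of a difference between genotypes. Intervals are at 95% throughout. Those of counts are Poisson intervals, shares and ratios have Clopper-Pearson intervals, and none of them holds more than the error of counting.

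Macrophages that take up lipid from dying, fat-laden cells turn on a shared program in fat tissue, atherosclerotic plaques and the steatotic liver. The program joins lipid receptors and binding proteins, lysosomal proteases and lipases, and secreted proteins that act on the matrix, with Gpnmb, Spp1, Cd9 and Trem2 as commonly used markers. In the liver such cells arise largely from recruited monocytes, and they are found beside resident Kupffer cells, which are known by Clec4f, Timd4 and Vsig4.

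The 2 libraries held 79589511 counts in 2581 cells for the AEG-1DMAC label and 90440089 counts in 3535 cells for the AEG-1fl/fl label, over 19059 genes. Limits on genes and mitochondrial counts left out 10 and 27 cells, and the limit of 3000 counts left out 442 and 759. The libraries had 10 cell barcodes in common. No barcode was a member in both libraries, and the barcode of 1 member was also present in the other library. Members had a median of 6374 counts (range 3143 to 96146) in the AEG-1DMAC-labelled and 7086 (range 3001 to 104986) in the AEG-1fl/fl-labelled library. Their mitochondrial share was 1.43% and 1.41% in the median cell. Summed, the members gave 848008 and 4621059 counts, so values of the AEG-1DMAC-labelled members rest on far fewer counts. No doublet caller was run, and cells with markers of other cell types were instead left out in alternative selections.

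Mtdh, the gene that the cross deletes, was read first. It is listed as ENSMUSG00000022255 and lies on chromosome 15 of GRCm38 from 34082694 to 34145624. Members had 122 counts of Mtdh in the AEG-1DMAC-labelled and 117 in the AEG-1fl/fl-labelled library, a level of 144 CPM (95% interval 119 to 172) against 25.3 CPM (95% interval 20.9 to 30.3). The AEG-1DMAC-labelled members thus held more Mtdh, with a log2 ratio of 2.51 (95% interval 2.13 to 2.88), although it is the gene deleted from myeloid cells of this genotype, and the intervals of the libraries did not overlap. In L-low macrophages the log2 ratio was 1.26, with 111 and 46.3 CPM. It was higher in each bin of the L score, at 2.19 for 5 to 10 counts per 10000, 2.14 for 10 to 20, 2.75 for 20 to 40 and 3.12 for 40 and over. When each cell was thinned to 3000 counts, 31.9% of the AEG-1DMAC-labelled and 8.04% of the AEG-1fl/fl-labelled members had a count of Mtdh, against 15.3% and 15.9% of hepatocyte reference cells, whose median depths before thinning were 32813 and 37884 counts. Hepatocyte RNA at the share seen in the members would give 19.3 and 15.04 CPM. Lyz2, the lysozyme gene whose locus drives Cre, had 2520.0 and 1311 CPM in members, a log2 ratio of 0.94 (95% interval 0.87 to 1.01). Which part of Mtdh was floxed, and whether its probes lie inside it, is not given in the sources used here. Whether the level of Mtdh reads the deletion was not tested, and neither was an exchange of the labels. Mtdh ran against the labels, and all directions between libraries given here hold for the labels as deposited.

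Members made up 3.38% of the kept cells (72 of 2129, 95% interval 2.66 to 4.24) in the AEG-1DMAC-labelled library. In the AEG-1fl/fl-labelled library they made up 15.4% (423 of 2749, 14.1 to 16.8). L-low macrophages were 8.13% (7.00 to 9.37) and 8.84% (7.80 to 9.96) of the kept cells, 2 intervals that overlap. The lower share of macrophage-selected cells in the AEG-1DMAC-labelled library, 11.5% against 24.2% of the kept cells, thus lay mainly in the members. Of the macrophage-selected cells, 29.4% (72 of 245, 23.8 to 35.5) and 63.5% (423 of 666, 59.7 to 67.2) were members. Hepatocyte reference cells were 817 and 759 kept cells with at least 10000 counts and under 1 count per 10000 of the macrophage, endothelial and stellate genes above and of T and NK, B, neutrophil and cholangiocyte markers (Spp1 and Sox4 left out of the last). Without them, members were 5.49% (4.32 to 6.86) and 21.3% (19.5 to 23.1) of the kept cells. Shares of cells in a dissociated liver also follow how well each cell type was recovered, which was not tested.

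**Figure D1:**
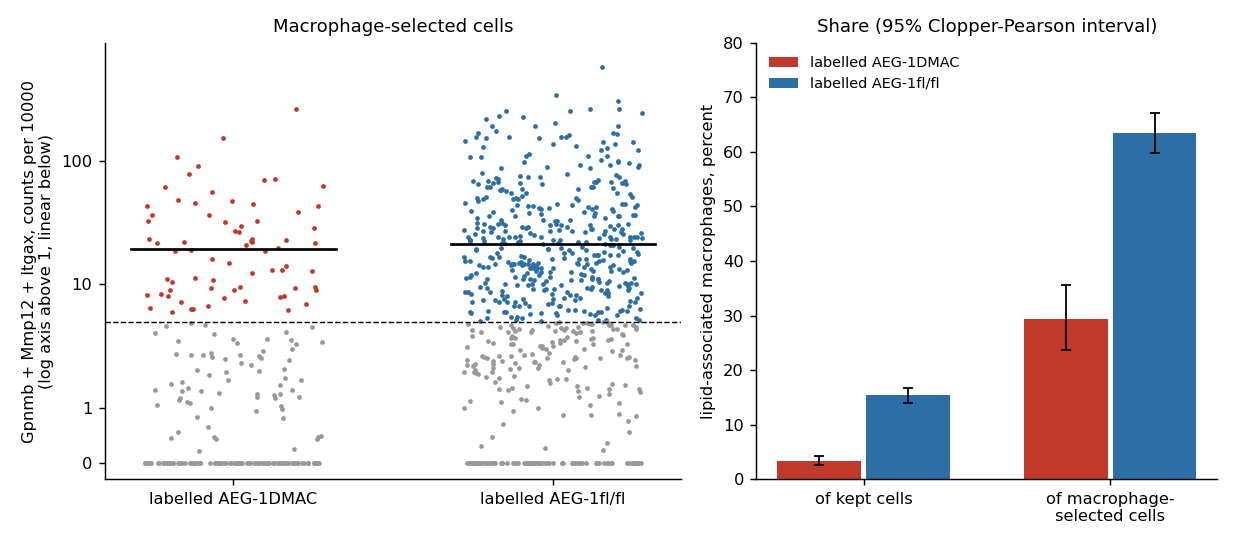
Left, the L score (summed Gpnmb, Mmp12 and Itgax, counts per 10000, log axis above 1 and linear below) of each macrophage-selected cell by library, with the limit of 5. Right, members as a percent of the kept cells and of the macrophage-selected cells with 95% Clopper-Pearson intervals: bars stand at 3.38% and 29.4% for the AEG-1DMAC-labelled library and at 15.4% and 63.5% for the AEG-1fl/fl-labelled library.

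The L score chose the cells, so its values describe the selection. It ran from 6.02 to 259.5 counts per 10000 in the AEG-1DMAC-labelled members with a median of 19.3, and from 5.02 to 570.1 with a median of 21.4 in the AEG-1fl/fl-labelled members. The highest L-low cells reached 4.85 and, rounded from just under the limit, 4.998. Just inside the limit, from 5 to under 6, were 0 and 24 members. Just outside it, from 4 to under 5, were 6 and 38 L-low cells, and 101 and 86 L-low cells had none of the 3 genes. Members fell into bins of 5 to 10, 10 to 20, 20 to 40 and 40 and over as 22, 15, 19 and 16 cells in the AEG-1DMAC-labelled and 93, 112, 98 and 120 cells in the AEG-1fl/fl-labelled library. The macrophage score of the other 5 genes had a median of 26.2 and 27.2 counts per 10000 in members and 21.04 and 24.3 in L-low macrophages.

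Gpnmb, a membrane glycoprotein of lysosomes and melanosomes, gave most of the L counts, 51.2% and 59.003%. Mmp12, the macrophage elastase, gave 38.7% and 31.8%, and Itgax, the integrin alpha X chain known as CD11c, the rest. The pooled level of Gpnmb was 1335 CPM in the AEG-1DMAC-labelled and 2873 CPM in the AEG-1fl/fl-labelled members. Mmp12 stood at 1008 and 1549.9 CPM, and Itgax at 264 and 447 CPM. All 3 selection genes were thus lower in the AEG-1DMAC-labelled members, by log2 ratios of -1.11, -0.62 and -0.76. Of the 72 AEG-1DMAC-labelled members, 59 had a count of Gpnmb, 47 of Mmp12, 45 of Itgax and 24 of all 3. The AEG-1fl/fl-labelled members had 364, 266, 311 and 186 such cells of 423. Members that carried only 1 of the genes were mostly Gpnmb alone (7 and 51 cells) or Itgax alone (9 and 36), rarely Mmp12 alone (1 and 4). A single AEG-1fl/fl-labelled cell held 2003 of the 7162 Mmp12 counts. Without the cell highest in the gene in each library, the log2 ratio of Mmp12 between libraries was -0.22, and that of Gpnmb was -1.05.

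The promoters of selection genes and of 2 genes described further on are given so that the letters behind the motif counts further on can be read for the genes that the selection and the protease and lysosome results turn on. The letters are the RefSeq reference of GRCm38.p6, from 250 bases before to 50 bases after an annotated start, written along the gene's strand. Capitals mark a match to TGACTCA (the AP-1 motif), GAGGAAGT (a PU.1-type ETS motif) or CACGTG (an E-box found in many lysosomal genes), on either strand. Gpnmb lies at chr6:49036268-49036567 on the plus strand with 1 AP-1 match. Mmp12 has 2 annotated starts, at chr9:7344147-7344446 with a PU.1-type match and at chr9:7347124-7347423 with an AP-1 match, both on the plus strand. Itgax (chr7:128129300-128129599, plus strand) and Mmp13 (chr9:7272264-7272563, plus strand) hold 1 AP-1 match each, and Ctsd (chr7:142387778-142388077, minus strand) holds 2 E-boxes. Spp1 was read too and is not printed: its upstream start holds a PU.1-type match and its downstream start holds no match.
Gpnmb: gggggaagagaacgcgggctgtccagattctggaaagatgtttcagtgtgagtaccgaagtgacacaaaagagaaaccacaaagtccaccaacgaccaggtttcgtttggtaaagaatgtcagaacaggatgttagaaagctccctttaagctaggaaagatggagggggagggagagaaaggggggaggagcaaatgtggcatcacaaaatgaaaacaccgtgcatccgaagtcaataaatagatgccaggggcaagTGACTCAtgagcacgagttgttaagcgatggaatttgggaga
Mmp12, upstream start: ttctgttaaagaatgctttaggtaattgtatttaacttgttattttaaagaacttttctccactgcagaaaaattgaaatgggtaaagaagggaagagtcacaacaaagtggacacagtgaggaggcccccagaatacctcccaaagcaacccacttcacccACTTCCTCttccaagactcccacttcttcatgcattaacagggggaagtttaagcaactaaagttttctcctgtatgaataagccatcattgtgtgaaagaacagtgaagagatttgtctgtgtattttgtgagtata
Mmp12, downstream start: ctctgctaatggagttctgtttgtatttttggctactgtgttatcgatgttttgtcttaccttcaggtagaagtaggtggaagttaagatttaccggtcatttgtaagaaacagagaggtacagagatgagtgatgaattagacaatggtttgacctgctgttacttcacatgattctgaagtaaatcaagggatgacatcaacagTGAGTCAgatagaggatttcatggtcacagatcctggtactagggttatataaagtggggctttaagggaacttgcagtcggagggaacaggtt
Itgax: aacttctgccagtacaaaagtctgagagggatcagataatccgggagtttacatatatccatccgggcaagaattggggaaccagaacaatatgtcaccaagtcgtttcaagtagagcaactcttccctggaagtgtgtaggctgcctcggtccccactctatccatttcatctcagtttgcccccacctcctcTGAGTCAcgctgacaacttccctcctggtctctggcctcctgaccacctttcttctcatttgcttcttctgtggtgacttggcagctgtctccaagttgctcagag
Mmp13: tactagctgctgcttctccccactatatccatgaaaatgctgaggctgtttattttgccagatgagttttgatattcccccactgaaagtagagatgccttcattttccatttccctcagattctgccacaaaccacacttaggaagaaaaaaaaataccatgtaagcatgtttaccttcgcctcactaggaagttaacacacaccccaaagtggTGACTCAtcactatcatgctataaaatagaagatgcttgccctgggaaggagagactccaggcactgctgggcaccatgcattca
Ctsd: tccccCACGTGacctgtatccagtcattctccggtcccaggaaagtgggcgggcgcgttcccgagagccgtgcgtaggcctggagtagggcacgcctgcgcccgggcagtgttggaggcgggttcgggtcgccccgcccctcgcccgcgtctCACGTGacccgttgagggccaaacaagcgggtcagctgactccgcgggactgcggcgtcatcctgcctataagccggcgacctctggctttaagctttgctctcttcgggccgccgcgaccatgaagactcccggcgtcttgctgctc

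Over all 32851 RefSeq promoters of this length, 5.20% held the AP-1 motif, 7.15% the E-box and 3.20% the PU.1-type motif, and over the 6586 promoters of genes tested between members and L-low macrophages the shares were 4.04%, 10.5% and 3.60%. Among the 127 promoters found for 105 of the 137 genes past 2-fold higher in members of both libraries, 14 (11%) held AP-1, 9 (7.09%) the E-box and 13 (10.2%) the PU.1-type motif. These include the selection genes Gpnmb, Mmp12 and Itgax, which are higher because of the selection. Each of them adds an AP-1 match, and Mmp12 also a PU.1-type match. The 46 promoters found for 40 of the 59 genes past 2-fold lower held them in 6 (13%), 5 (10.9%) and 1 (2.17%). The AP-1 share was thus about as high among genes lower in members as among genes higher in them. The genes were chosen on the counts, so the shares are a description without a test, and a match of letters does not show that a factor binds.

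The label of the cells was read against genes outside the selection. Of 20 genes of the lipid-associated program outside the L score, 12 of 19 with enough counts were past 2-fold higher in members than in L-low macrophages in the AEG-1DMAC-labelled library and 15 of 20 in the AEG-1fl/fl-labelled library. The median log2 ratios were 1.35 and 1.34, and the median of all 6266 genes tested in both libraries was 0.12 and 0.08. Over all genes, 4.06% and 3.56% were past 2-fold higher, 3.6% and 3.45% past 2-fold lower, and 2.19% (137 genes) and 0.942% (59 genes) were so in both libraries. Members and L-low cells were separated on the L score, and members have less hepatocyte RNA, so these counts describe the selected cells and are not tests. With genes that are higher in hepatocytes taken out of the total, the 137 and 59 genes became 49 and 516, and the median of all genes moved to -0.30 in both libraries, so every ratio of members over L-low macrophages reads lower on that scale by the same shift.

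In single cells the 20 program genes together had a median of 123 counts per 10000 (range 24.2 to 426) in the AEG-1DMAC-labelled and 135 (23.7 to 1199.9) in the AEG-1fl/fl-labelled members. L-low cells had medians of 56.4 and 73.9, with ranges that overlapped those of the members. Hepatocyte markers, 40 genes, took 3.33% and 2.92% of the counts of the median member and 7.998% and 4.41% of the median L-low cell. As summed counts they were 6.36% and 5.16% of members, against 20.3% and 19.8% of hepatocyte reference cells. Between libraries, 35 of the 39 hepatocyte markers tested lay above 0 in members with a median log2 ratio of 0.41. The part of this RNA in the results was not tested beyond the alternatives that subtract it or leave out the cells with most of it.

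**Figure D2:**
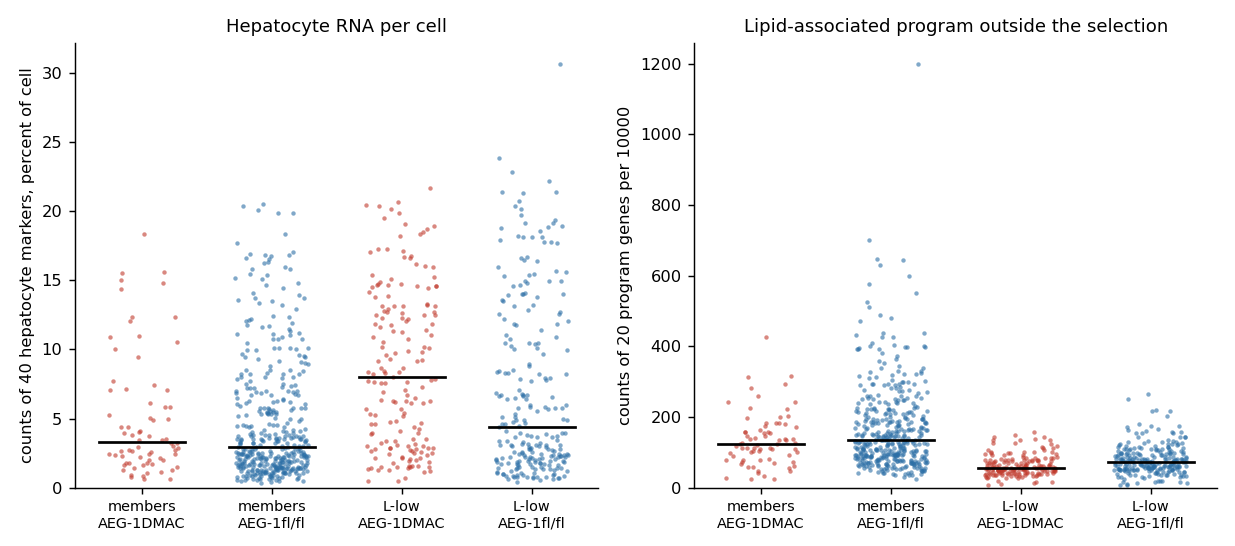
Each point is a macrophage-selected cell, by library and by class (member or L-low), with the percent of its counts in 40 hepatocyte markers on the left and its counts per 10000 of the 20 lipid-associated program genes outside the selection on the right, lines at medians. Program genes have medians of 123 and 135 in members and 56.4 and 73.9 in L-low cells, while hepatocyte markers have medians of 3.33% and 2.92% in members and 7.998% and 4.41% in L-low cells.

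Cd63, a tetraspanin of late endosomes given as a marker of these cells, had 390.3 CPM in the AEG-1DMAC-labelled and 557 CPM in the AEG-1fl/fl-labelled members, against 49.5 and 105 CPM in L-low macrophages. The members were higher by log2 ratios of 2.98 and 2.40. Spp1, which encodes osteopontin, did not mark the AEG-1DMAC-labelled members: it had 32 counts there, 37.7 CPM, beside 30.3 CPM in L-low macrophages and 77.9 CPM in hepatocyte reference cells. In the AEG-1fl/fl-labelled library Spp1 had 1647 counts, 356 CPM, beside 155 and 233 CPM. Hepatocyte RNA would give 24.4 and 60.7 CPM of Spp1 in members. After thinning to 3000 counts, 6.94% and 30.97% of members and 9.55% and 22.5% of hepatocyte reference cells had a count of Spp1. Of these markers outside the selection, Cd63 was thus high in the members of both libraries, and Spp1 in those of the AEG-1fl/fl-labelled library only.

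Trem2, a lipid receptor, is the gene by which such cells are often named. It had 139 CPM (118 counts) in the AEG-1DMAC-labelled and 313 CPM (1448 counts) in the AEG-1fl/fl-labelled members, a log2 ratio of -1.17 (95% interval -1.45 to -0.90). L-low macrophages had 28.2 and 87.1 CPM, so that members were higher by 2.30 and 1.85. Thinned to 3000 counts, 38.9% and 50.4% of members had a count of Trem2, against 0.490% and 1.45% of hepatocyte reference cells. Tyrobp, the adaptor through which Trem2 signals, differed little between libraries, with 1238 and 1336 CPM and a log2 ratio of -0.11 (95% interval -0.21 to -0.01). Cd9, another tetraspanin, had 249 and 443 CPM, a log2 ratio of -0.83 (95% interval -1.04 to -0.63).

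Between libraries, 8113 genes had at least 100 summed counts in members, of which 57 (0.703%) were past 2-fold higher and 134 (1.65%) past 2-fold lower in the AEG-1DMAC-labelled members, with a median log2 ratio over all genes of 0.02. The AEG-1fl/fl-labelled members hold most of these counts, so a gene high there meets the limit more easily than one high in the other library. Numbers past 2-fold lower and higher between libraries, here and in the lists, are therefore not on an equal footing. Of the 20 program genes, 0 were past 2-fold higher and 3 past 2-fold lower (Spp1, Fabp5 and Trem2), 17 lay below 0, and the median was -0.40. Lipoprotein lipase (Lpl), which frees fatty acids from lipoproteins, had 1689 and 2785 CPM, a log2 ratio of -0.72 (95% interval -0.80 to -0.64). A single AEG-1DMAC-labelled member held 397 of the 1432 counts of Lpl, and the ratio was -0.97 without the highest cells. Fabp5, a fatty acid binding protein, had 80.2 and 221 CPM, a log2 ratio of -1.46 (95% interval -1.84 to -1.11). Lgals3, which encodes galectin 3, had 1498 and 1713 CPM and a ratio of -0.19. Capg, an actin-capping protein, had 283 and 262 CPM with an interval of -0.09 to 0.31 that holds 0, and the droplet coat protein gene Plin2 had 850.2 and 781 CPM. Capg, Plin2 and Mgll were the 3 program genes above 0. Summed, the program took 151 counts per 10000 in the AEG-1DMAC-labelled and 203 in the AEG-1fl/fl-labelled members. The lower level was found in L-low macrophages too, where 16 of 19 program genes lay below 0, 3 of them past 2-fold, with a median of -0.35.

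**Figure D3:**
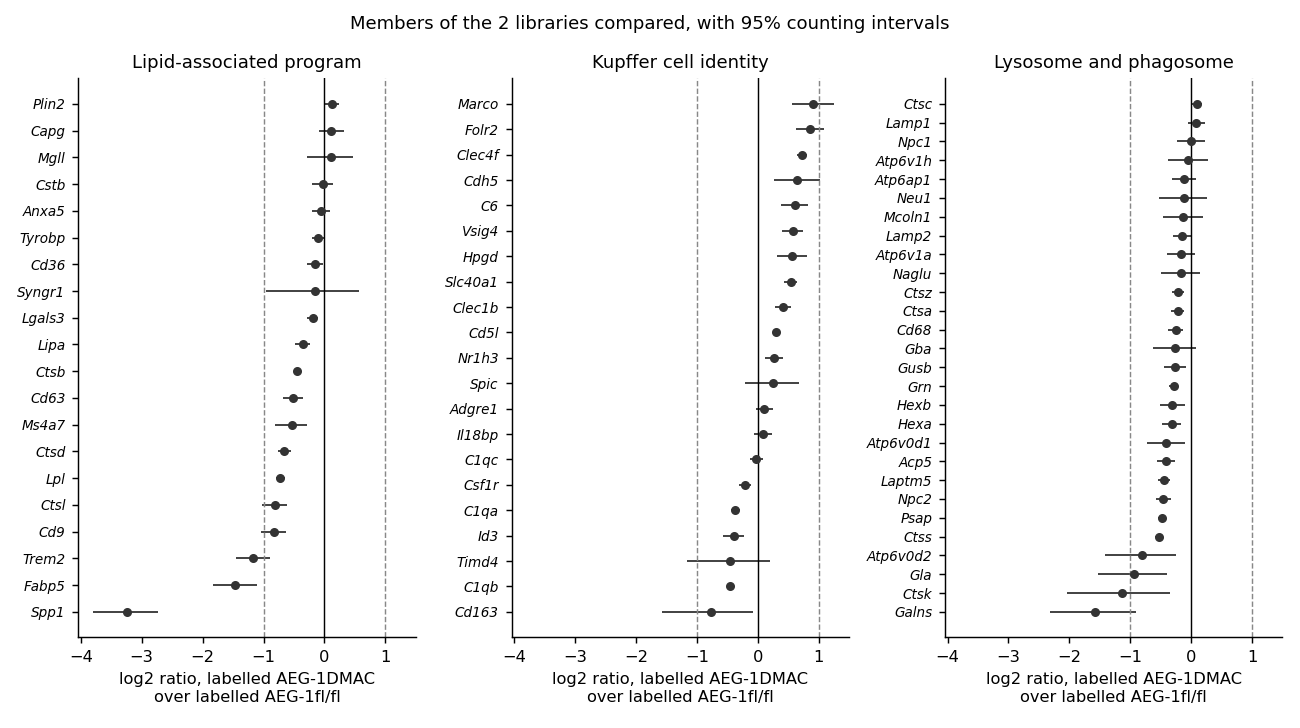
Log2 ratio of the AEG-1DMAC-labelled over the AEG-1fl/fl-labelled members (x axis) for each gene of the lipid-associated program, of Kupffer cell identity and of lysosome and phagosome, with 95% Clopper-Pearson intervals, a line at 0 and dashed lines at the 2-fold limit. Spp1 (-3.24) lies farthest to the left, program and lysosomal genes lie mostly left of 0, and Kupffer cell genes such as Clec4f (0.72) lie mostly to the right within the 2-fold limit.

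Genes of lipid uptake, storage and efflux differed less between the libraries than the program's markers. Of 22 tested, 0 were past 2-fold higher and 2 past 2-fold lower in the AEG-1DMAC-labelled members, with a median of -0.12. The lower ones were Fabp5 and Fabp4, the latter with 35 and 409 counts and a log2 ratio of -1.10 (95% interval -1.64 to -0.60). The scavenger receptor gene Msr1 had 544 and 534 CPM, and Cd36, a fatty acid and lipoprotein receptor, 657 and 728 CPM. Of the cholesterol handling genes, the exporters Abca1 (612 and 685 CPM) and Abcg1 (206 and 251) and Soat1, which esterifies cholesterol (221 and 224), had log2 ratios of -0.16, -0.28 and -0.02. Against L-low macrophages, Lpl was higher in members by 2.39 and 2.15, Cd36 by 1.31 and 1.22, Soat1 by 1.07 and 1.01 and Abcg1 by 0.998 and 1.02. Dgat2, which makes triglyceride, was lower by 1.18 and 1.10, and the monoglyceride lipase gene Mgll had -0.60 and -1.05. Dgat2 and Mgll are higher in hepatocyte reference cells, at 396 and 615 and at 214 and 257 CPM, than in members. The part of hepatocyte RNA in their lower level was not tested. The lipogenic receptor gene Pparg had 51.9 and 66.4 CPM in members and 17.5 and 33.8 in L-low cells.

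Lysosomal genes were higher in members than in L-low macrophages together: 23 of 24 and 28 of 28 tested lay above 0, 9 and 11 of them past 2-fold, with medians of 0.82 and 0.77. Psap, the precursor of the saposins that help to break down sphingolipids, had 2700.4 and 3755 CPM in members and 926 and 1387 CPM in L-low cells. Cathepsin D (Ctsd), an aspartic protease, had 895 and 1414 against 258 and 446 CPM, and the cysteine protease gene Ctsb 4913 and 6715 against 1846 and 2552 CPM. Lipa, which encodes the acid lipase that frees cholesterol from its esters, stood at 729.9 and 936 CPM, higher by 0.999 and 1.12. Cd68, a lysosomal membrane protein used to stain macrophages, was higher by 1.73 and 1.45. Between libraries the lysosomal list was slightly lower in the AEG-1DMAC-labelled members, with 26 of 28 genes below 0, 2 past 2-fold and a median of -0.27. L-low macrophages had 23 of 25 below 0 and a median of -0.33. The 2 genes past 2-fold were Galns, a sulfatase (19 and 308 counts, log2 ratio -1.57, interval -2.32 to -0.91), and Ctsk (14 and 167 counts, log2 ratio -1.13, interval -2.03 to -0.34).

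Genes known from osteoclasts, cells that fuse and resorb bone with lysosomal enzymes, were read as a further list. Dcstamp, a receptor needed for cell fusion, had 126 and 214 CPM in members against 5.98 and 21.98 CPM in L-low cells, a log2 ratio of 4.40 and 3.28. Atp6v0d2, a subunit of the proton pump, had 34.2 and 59.9 against 2.14 and 2.75 CPM. Both were thus low in L-low macrophages, where Atp6v0d2 had only 5 and 7 counts. Ctsk, the collagen-cutting cathepsin K, had 16.5 and 36.1 CPM in members, and Acp5, the tartrate-resistant phosphatase, 474 and 629.7 CPM. Over the list, 3 of 4 and 5 of 8 tested genes were past 2-fold higher in members, and between libraries all 7 tested lay below 0 in the AEG-1DMAC-labelled members, 2 past 2-fold, with a median of -0.76. One of these 2, the fusion gene Ocstamp, had 1 count and 149 counts, 99 of them in 1 cell. In L-low macrophages all 4 genes tested between libraries lay below 0 too, with a median of -0.61.

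Of the matrix proteases and their inhibitors, 3 of 10 and 7 of 13 genes tested were past 2-fold higher in members than in L-low macrophages, and 1, Mmp9, was past 2-fold lower in the AEG-1fl/fl-labelled library. Mmp9 is on the list of neutrophil markers too. Adam8, a membrane protease of leukocytes, had 140.3 and 389 CPM in members and 11.5 and 30.6 CPM in L-low cells, and members were higher by 3.61 and 3.67. Plau, the urokinase that activates plasminogen, had 347 and 322 against 29.04 and 36.9 CPM, and its receptor gene Plaur 81.4 and 116 against 22.6 and 29.05 CPM. A single AEG-1DMAC-labelled member held 106 of the 294 counts of Plau, and without the highest cells Plau was still higher in members by 3.13 and 3.12. Mmp13, a collagenase, had 9 and 381 counts in members, 10.6 and 82.4 CPM. Of the inhibitors, Timp2 had 89.6 and 136 CPM in members, higher than in L-low cells by 0.999 and 1.94, and Timp3 18.9 and 42.8 CPM with ratios of -0.96 and 0.23. Between libraries, 0 of the 12 genes tested were past 2-fold higher in the AEG-1DMAC-labelled members, 3 were past 2-fold lower and the median was -0.48. Mmp13 was lower by 2.96 on the log2 scale (interval -4.10 to -2.02), the lowest ratio among the 4173 genes eligible by the naming rule. Adam8 was lower by 1.47 (interval -1.75 to -1.20) and Timp3 by 1.18 (interval -2.02 to -0.45), while Plau had a ratio of 0.11 (interval -0.08 to 0.29). Without the highest cells Plau was at -0.38 and Timp3 at -2.05. In L-low macrophages 8 of 12 genes tested lay below 0 between libraries, 2 of them past 2-fold (Mmp9 and Adam8), with a median of -0.19.

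Signals to stellate cells, the collagen-making cells of the liver, were mostly lower in the AEG-1DMAC-labelled members. Of 11 genes tested, 9 lay below 0, 4 were past 2-fold lower and 0 past 2-fold higher, with a median of -0.49. Besides Spp1 these were Pdgfb (30 and 336 counts, log2 ratio -1.04, interval -1.63 to -0.50), which encodes a growth factor for stellate cells, Vegfa (15 and 198 counts, -1.28) and Thbs1 (5 and 125 counts, -2.20). Of the Thbs1 counts, 59 came from 1 AEG-1fl/fl-labelled cell, and the level of Vegfa in members, 17.7 and 42.8 CPM, is below that in hepatocyte reference cells (95.2 and 86.4 CPM). Pdgfa went the other way, with 65 and 181 counts and a log2 ratio of 0.97 (interval 0.54 to 1.39). Tgfb1, the main fibrogenic cytokine, had 237 and 333 CPM, a ratio of -0.49 (interval -0.71 to -0.28), and was higher in members than in L-low cells by 0.66 and 0.65. Stellate markers ran the same way between libraries, with 9 of 9 tested below 0, 3 of them past 2-fold, and a summed level of 6.01 and 11.99 counts per 10000. Against L-low cells, Vegfa had log2 ratios of -1.51 and 0.43, of opposite sign in the 2 libraries like the stellate collagens, and Thbs1 had 73 and 37 counts in L-low cells. In L-low macrophages 8 of 11 genes of the list lay below 0 between libraries, with 1 past 2-fold lower (Spp1), 1 past 2-fold higher (Thbs1) and a median of -0.23. The part of stellate RNA in this list was not tested.

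Myeloid receptors were higher in members than in L-low macrophages for 17 of 18 and 19 of 21 genes tested, 5 and 6 of them past 2-fold. Axl, a receptor for apoptotic cells, had 1426 and 1625 CPM against 597 and 922 CPM, while Mertk, its relative on resident macrophages, had 763 and 703 against 509 and 592 CPM. The leukocyte receptor genes Slamf7 (log2 ratios of 2.02 and 2.01), Cd84 (1.22 and 1.09) and Cd300lb (1.53 and 1.25) were past 2-fold higher in both libraries. The checkpoint gene Havcr2 was past 2-fold higher in the AEG-1fl/fl-labelled library (1.04) and had too few counts in the other (34 in members and 23 in L-low cells). Between libraries 18 of 19 tested lay below 0 with a median of -0.23, and Trem2 was the 1 gene past 2-fold, beside 17 of 19 below 0 and a median of -0.39 in L-low macrophages. Fcgr1 and Fcgr2b, receptors for antibodies, had ratios of -0.69 and -0.85.

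Antigen presentation genes of class II were lower in the AEG-1DMAC-labelled members by nearly equal amounts. H2-Aa had 2123 and 3544 CPM, H2-Ab1 2614 and 4328 CPM and H2-Eb1 3565 and 5889 CPM, and their log2 ratios of -0.74, -0.73 and -0.72 had intervals under 0. The invariant chain gene Cd74 had 8454 and 11812 CPM, a ratio of -0.48 (interval -0.52 to -0.45). L-low macrophages gave -0.57, -0.59, -0.62 and -0.48 for the same genes, so the lower level was found in L-low macrophages too. None of the 14 genes tested was past 2-fold between libraries, and the median was -0.46. Of the class I genes, H2-D1 had a ratio of -0.94 and H2-K1 of 0.23. Within each library members exceeded L-low cells by 1.02 and 1.18 for H2-Aa and by 1.12 and 1.12 for Cd74.

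Inflammation genes did not follow the program between libraries. Within each library they were mostly higher in members than in L-low macrophages. There 19 of 21 and 17 of 21 tested lay above 0, 4 and 5 of them past 2-fold (over all genes 4.06% and 3.56%), with medians of 0.41 and 0.40. In the AEG-1fl/fl-labelled library 1, Ccl5, was past 2-fold lower. Of 22 tested between libraries, 12 lay above and 10 below 0, the median was 0.09, and the 2 past 2-fold, both higher in the AEG-1DMAC-labelled members, each rested on 1 cell. The chemokine gene Ccl4 had 103 counts in those members, 75 of them in 1 cell, and 230 in the AEG-1fl/fl-labelled members, and its log2 ratio of 1.29 became -0.44 without the highest cell of each library. Cxcl2, a neutrophil chemokine, had 33 counts, 22 of them in 1 cell, and its ratio went from 1.42 to 0.24. Ccl3 likewise went from 0.76 to 0.02. Nfkbia, the inhibitor of NF-kB that NF-kB itself induces, had 381 and 254 CPM and a ratio of 0.58 (interval 0.40 to 0.76), and 0.44 without the highest cells. The NF-kB subunit genes Nfkb1 and Rela had ratios of -0.02 and -0.04, and the cytokine gene Il1b of 0.48. Tnf had 32 and 99 counts, 18 of the first in 1 cell, and its ratio went from 0.82 to -0.10 without the highest cells. Vcam1, an adhesion molecule, had 689 and 828 CPM in members and 264 and 701 CPM in L-low cells, so the library labelled AEG-1DMAC was lower in L-low cells by 1.41 and in members by 0.27 on the log2 scale. Il1rn, the antagonist of the IL-1 receptor, was higher in members by 1.09 and 1.65.

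Interferon-induced genes lay below 0 between libraries for 10 of 12 tested, 1 of them past 2-fold, at a median of -0.22. Cxcl9 stood out, with 15 and 709 counts in members and a log2 ratio of -3.12, but 559 of the 709 counts came from 1 cell, and without the highest cells the ratio was -1.30. The iron and heme list had a median of 0.06 over 8 genes, with Hmox1, which breaks down heme, at 715 and 791 CPM and higher in members than in L-low cells by 1.15 and 1.23. Glycolysis and respiration genes had a median of -0.06 over 17 genes and 0 past 2-fold. The cell cycle list had a median of -0.45 over 10 genes, 2 of them past 2-fold lower in the AEG-1DMAC-labelled members. Over 10 counts per 10000 of it were found in 4 of 72 and 29 of 423 members.

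Transcription regulators of macrophages were close to level between libraries, with 0 of 19 tested past 2-fold and a median of -0.03. Spi1, which encodes PU.1, had 351 and 348 CPM. Mitf, the regulator of lysosome and pigment genes whose known targets include Gpnmb, had 64.9 and 75.1 CPM in members and 19.6 and 34.5 in L-low cells, log2 ratios of 1.72 and 1.12. Its relative Tfeb, a regulator of lysosome biogenesis, had ratios of 1.05 and 0.69, and Tfe3 of 0.07 and 0.21. Bhlhe41, a transcriptional repressor, had 25.9 and 13.8 CPM against 2.14 and 1.18 CPM, but on 22 and 64 counts in members.

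Kupffer cell identity genes were at high levels in the members of both libraries. Clec4f, a lectin specific to Kupffer cells in the mouse, had 1821 CPM in the AEG-1DMAC-labelled and 1106 CPM in the AEG-1fl/fl-labelled members, against 2221 and 2267 CPM in L-low macrophages and 53.2 and 26.2 CPM in hepatocyte reference cells. The L-low cells were level between libraries, and the members differed by 0.72 (95% interval 0.64 to 0.80). Vsig4, a complement receptor, had 439 and 295 CPM in members, a ratio of 0.57, and -0.34 in L-low cells. Folr2 and Marco, a folate and a scavenger receptor, had ratios of 0.85 and 0.91, the first falling to 0.61 without the highest cells, and 43 of the 96 counts of Marco in AEG-1DMAC-labelled members came from 1 cell. Cd5l, a secreted protein of resident macrophages, stood at 10317 and 8381 CPM in members and was higher than in L-low cells by 0.84 and 0.49. Timd4, a phosphatidylserine receptor of long-resident Kupffer cells, was low, at 25.9 and 35.5 CPM in members against 128 and 86.7 CPM, and so was Cd163, the hemoglobin scavenger receptor, at 21.2 and 36.4 against 97.4 and 117 CPM. Over 21 genes, 14 lay above 0 between libraries, 0 were past 2-fold either way, and the median was 0.27, beside -0.06 in L-low macrophages. The list's summed level was 251 counts per 10000 in AEG-1DMAC-labelled and 235 in AEG-1fl/fl-labelled members.

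Complement C1q genes, on the same list, did not share this direction: C1qa and C1qb had ratios of -0.37 and -0.46, and C1qc of -0.02. In members against L-low cells, C1qb was higher by 1.14 and 1.02. Monocyte genes were mixed in sign against L-low macrophages, but those past 2-fold were mostly lower in members. In the AEG-1DMAC-labelled library 5 of 12 tested were past 2-fold lower and 1 past 2-fold higher, with a median of -0.79. The AEG-1fl/fl-labelled library had 3 of 12 lower and 0 higher, with a median of 0.11. Over all genes, 3.6% and 3.45% were past 2-fold lower. Chil3 and Plac8 were past 2-fold lower in both libraries. L-low cells held more counts of other leukocyte markers. Neutrophil markers were at 2.05 and 6.86 counts per 10000 there and at 1.59 and 1.99 in members. T and NK cell markers were at 1.11 and 1.99 in L-low cells and at 0.472 and 0.651 in members. The part of such cells in the lower monocyte genes was not tested beyond the alternative below. Ccr2, the receptor by which monocytes are recruited, had 191 and 266 CPM in members and 127 and 173 in L-low cells. Plac8, a gene of recruited monocytes, was lower in members, at 88.4 and 74.2 against 335 and 248 CPM. Among macrophage-selected cells with at most 2 counts per 10000 of each of the T and NK, B, neutrophil and dendritic cell lists (9 and 76 members), the ratio in the AEG-1fl/fl-labelled library was 0.94 for Plac8. Between libraries, Itgam, the integrin known as CD11b, was lower in AEG-1DMAC-labelled members (58 and 757 counts, ratio -1.26, interval -1.67 to -0.87), and so was S100a6 (12 and 180 counts, -1.46), the 2 of 11 monocyte genes past 2-fold, with a median of -0.38.

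**Figure D4:**
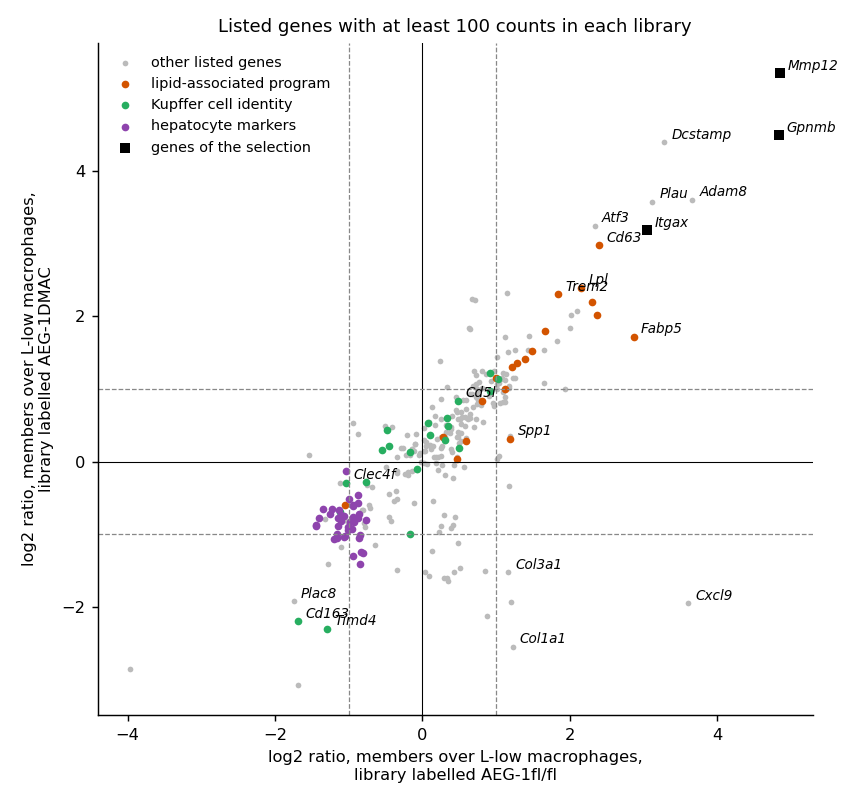
Log2 ratio of members over L-low macrophages for listed genes, in the AEG-1fl/fl-labelled (x axis) and the AEG-1DMAC-labelled library (y axis), genes of the selection as squares. Plau (3.12, 3.58), Dcstamp (3.28, 4.40) and Cd63 (2.40, 2.98) lie near the diagonal, while Col1a1 (1.23, -2.54) and Cxcl9 (3.61, -1.95) lie on opposite sides of 0 in the 2 libraries.

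Genes outside the selection were followed along the bins of the L score, which chose the cells but not these genes. Cd63 had 239.8, 317, 409.8 and 734 CPM from the lowest to the highest bin in the AEG-1DMAC-labelled and 187, 305, 483 and 1012 CPM in the AEG-1fl/fl-labelled library, higher in each bin than in the one before. Lgals3 went from 808 to 3279 and from 605 to 3715 CPM. It was higher in the AEG-1DMAC-labelled members in the bins of 10 to 20 (1138 and 634 CPM) and 20 to 40 (1501 and 969 CPM) and lower in the highest bin. Adam8 went from 33.7 to 457 and from 102 to 892 CPM. Trem2 had 79.9, 81.6, 145 and 322 CPM against 159, 207, 329 and 473 CPM, so it was lower in the AEG-1DMAC-labelled members of every bin, by log2 ratios between -1.34 and -0.55. Clec4f had 1994, 1834, 2045 and 1040.5 CPM against 1161, 1173, 1565 and 709 CPM, lowest in the highest bin of both libraries. Cd5l, by contrast, had 10136 and 11744 CPM in that bin. Members were not spread alike over the bins, so the AEG-1fl/fl-labelled members were also weighted to the bin sizes of the other library, a choice made after seeing the data. The median of the 20 program genes between libraries was then -0.33, and the ratios of Gpnmb, Mmp12 and Lgals3 were -0.92, -0.40 and -0.04.

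**Figure D5:**
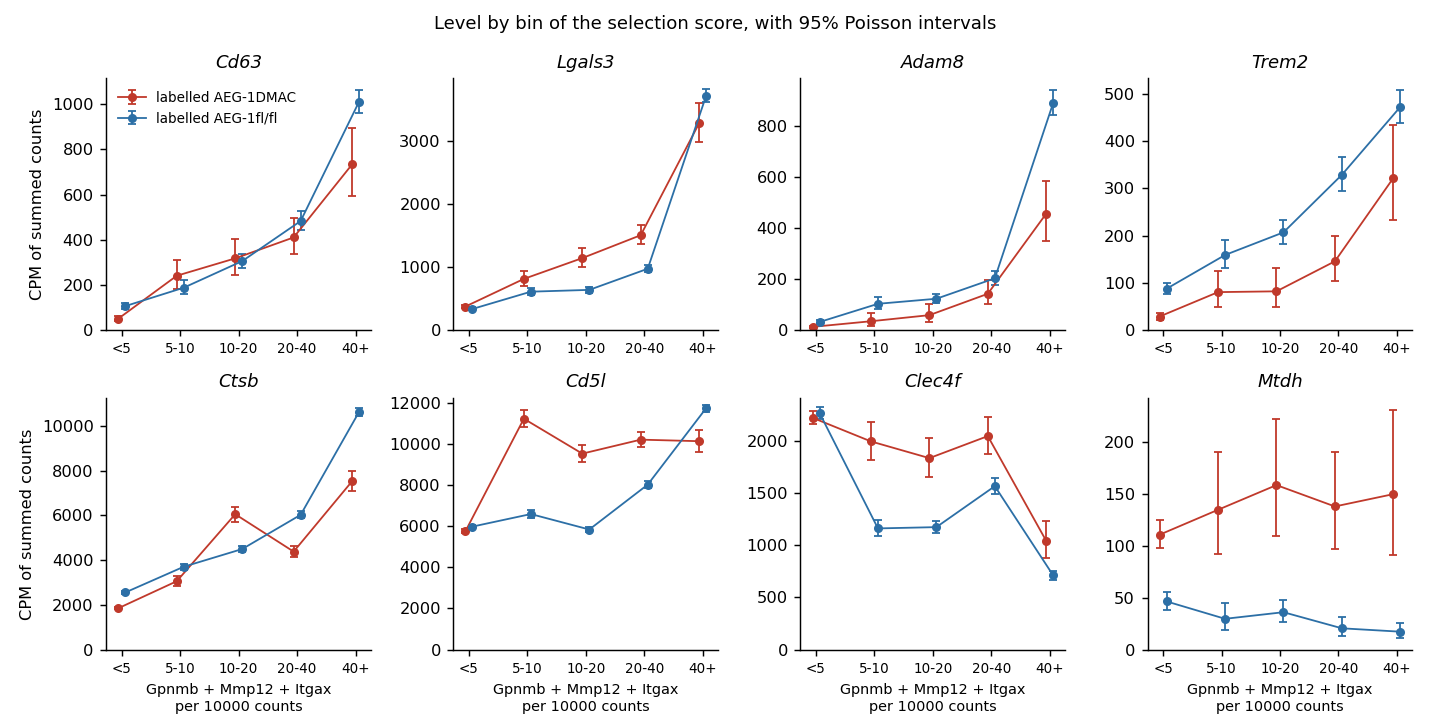
Level of 8 genes outside the selection (y axis, CPM of summed counts, with 95% Poisson intervals) in L-low macrophages and in 4 bins of the L score (x axis), by library. Cd63, Lgals3, Adam8, Trem2 and Ctsb are highest in the bin of 40 and over in both libraries (Trem2 at 322 and 473 CPM), Clec4f is lowest there (1040.5 and 709 CPM), and Mtdh is higher in the AEG-1DMAC-labelled cells of every bin.

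The naming rule also gave the genes with the widest ratios among those above the hepatocyte level. Between members and L-low macrophages it named, beside genes above, Atf3, a stress-induced transcription factor (3.25 and 2.34), and Mfsd12, a lysosomal cysteine transporter (2.08 and 2.11) on the higher side. Without the highest cells Atf3 was at 2.55 and 2.47. On the lower side stood Adgre4 (-0.82 and -1.02), an adhesion receptor of myeloid cells, Klf2 (-0.79 and -1.32), a transcription factor of quiescent cells, Gbp2b (-1.15 and -0.65), an interferon-induced GTPase, and Rasgrp2, Ptprm and Klra2. Between libraries the highest ratio was that of Fcna, a ficolin that Kupffer cells secrete (184 and 379 counts, 217 and 82.02 CPM, 1.40, interval 1.14 to 1.66). Fcna was followed by Ccl4, Rcc1 (1.20), the exchange factor of Ran, Fpr1 (1.07), a receptor for bacterial peptides, Uhrf1 (1.07) and Cdt1 (0.99), both needed for DNA replication or its methylation, Hba-a2 (1.06), an alpha globin gene, Rims3 (1.002), Pdgfa and the sodium pump subunit gene Atp1b3 (0.97). Low after Mmp13 were Col1a1 (-2.43), Dpep2 (-1.89), a leukotriene-cutting dipeptidase with 15 and 302 counts, Col1a2 (-1.86), Ccn2 (-1.81), the chemokine gene Pf4 (-1.76), the annexin gene Anxa1 (-1.62), Galns and Col4a1 (-1.52). Col1a1, Col1a2, Ccn2 and Col4a1 are known from stellate or endothelial cells. In the AEG-1fl/fl-labelled members 1 cell held 137 of the 352 counts of Anxa1, and without the highest cells its ratio was -1.37.

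Summed over the members, markers of other cell types were at low levels, and they differed between libraries and classes. The 12 stellate markers outside the selection summed to 6.01 counts per 10000 in the AEG-1DMAC-labelled and 11.99 in the AEG-1fl/fl-labelled members. The median member had 2.01 and 2.87, and the highest members had 21.5 and 241. Over 10 counts per 10000 were 8 of 72 and 51 of 423 members. In L-low macrophages the summed level was the other way round, at 14.97 and 6.66. The median L-low cell had 2.63 and 2.54, and the highest L-low cells had 754 and 97.3. Ngfr was at 0 in the AEG-1DMAC-labelled members, and 36 and 1057 counts of Col1a1 were found. Endothelial markers were at 4.41 and 5.41, dendritic cell markers at 4.73 and 5.04, neutrophil markers at 1.59 and 1.99, and erythroid markers at 2.72 and 1.43 counts per 10000. For dendritic cell markers, 15 of 72 and 72 of 423 members were over 10 counts per 10000, beside 31 of 173 and 58 of 243 L-low cells. For endothelial markers, 9 and 63 members were over that level. T and NK cell markers (0.472 and 0.651) and B cell markers (0.377 and 0.853) were under 1 count per 10000. Of defining markers, Cd3d, Cd8a, Ms4a1, Pax5, Ly6g, Retnlg, Epcam and Siglech were at 0 in the AEG-1DMAC-labelled members, and Ly6g and Mpo in the AEG-1fl/fl-labelled members. Other genes of the dendritic cell list were present: without the highest cells, members had 178 and 903 counts of Clec9a and 125 and 732 of Batf3. Whether some members are dendritic cells was not tested. Cholangiocyte markers were at 0.472 and 3.98 counts per 10000, mostly Spp1, which is on that list too. With only members low in stellate and endothelial markers, 56 and 322 cells, the members were 2.63% and 11.7% of the kept cells, and the ratios between libraries were -3.12 for Mmp13, -1.19 for Trem2 and -3.67 for Spp1, and Col1a1 no longer had enough counts.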

How the data were processed

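Single-cell RNA-Seq was read from 2 libraries of mouse liver, 1 per genotype. The authors aligned reads to mm10 and deposited gene by cell tables of raw counts without normalization, made with Cell Ranger 7.1.0 per the labels. The groups came from the labels. Cells, members and gene lists were selected with earlier results of these data known, so no list is independent support. Counts were summed over cells per library and class and given as counts per 1000000 (CPM). Log2 ratios were computed for genes with at least 100 summed counts, and a gene is called past 2-fold at a log2 ratio of at least 1 or at most -1, a limit and not a test. A row that shared its symbol with a row of more counts was kept under its identifier. Genes were named from the role lists, from the selection genes, and as the 10 highest and 10 lowest ratios between libraries and of members over L-low macrophages, with at least 200 summed counts and a level above hepatocyte reference cells. Which genes of the role lists are given with values was chosen after their values were seen. Depth sets the precision: 848008 counts in the AEG-1DMAC-labelled and 4621059 in the AEG-1fl/fl-labelled members. Alternatives changed the limits, the total, the thinning to 3000 counts, the hepatocyte correction and the cells used. Scripts were tested on simulated data. Python 3.11.15, NumPy 2.4.6, SciPy 1.17.1, pandas 2.3.3 and matplotlib 3.10.9 were used. Genes of the lists without a row in the tables (Ccnb1, Clec7a, Cx3cr1, Eno1, Ftl1, Gapdh, Lilr4b, Ly6c2, Mmrn2, Mx1, Xist) were not analysed here. Some genes that the rule gave are not reported here.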

Additional observations from a re-analysis of the deposited data

Results flagged for a closer look

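The ratio of members over L-low macrophages ran in opposite directions in the 2 libraries, past 2-fold on both sides, for 4 genes of the role lists. This difference between libraries was not tested, and the share of all genes that did so is not given here. Over the 6266 genes tested in both libraries, 2.19% were past 2-fold higher and 0.942% past 2-fold lower in members of both. Col1a1 had a log2 ratio of -2.54 in the AEG-1DMAC-labelled library (36 counts in members, 580 in L-low cells) and 1.23 in the AEG-1fl/fl-labelled library (1057 and 249). Col1a2 had -1.94 (46 and 486 counts) and 1.20 (909 and 218). Col3a1 had -1.52 (93 and 738 counts) and 1.17 (1374 and 337). All 3 are collagen genes of stellate cells, whose other markers ran the same way. A single AEG-1DMAC-labelled L-low cell held 211 of the 580 counts of Col1a1, and a single AEG-1fl/fl-labelled member held 277 of the 1057. Without the highest cells the ratios were -2.27 and 1.27 for Col1a1 and -1.71 and 1.03 for Col3a1. Cxcl9, a chemokine gene induced by interferon gamma, had -1.95 (15 and 160 counts) and 3.61 (709 and 32). One AEG-1fl/fl-labelled member held 559 of its 709 counts, and without the highest cells the ratios were -1.71 and 1.58. The part of stellate RNA in these values was not tested.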

How the results depend on the processing

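The share of members was lower in the AEG-1DMAC-labelled library under every alternative run. Of the kept cells, 3.38% and 15.4% in the AEG-1DMAC-labelled and AEG-1fl/fl-labelled libraries became 2.35% and 12% with an L limit of 10 per 10000, 1.19% and 8.10% with at least 10000 counts, 1.55% and 7.82% at or under the median hepatocyte share, 0.423% and 2.76% with at most 2 counts per 10000 of each other leukocyte list (9 and 76 cells), 2.63% and 11.7% with members low in stellate and endothelial markers, and 5.49% and 21.3% without hepatocyte reference cells in the denominator. The AEG-1fl/fl-labelled share alone also moved to 17.8% with an L limit of 3, 12.7% without Itgax in the score and 16.8% under stricter cell limits (500 genes, 5% mitochondrial counts). Of the macrophage-selected cells, 29.4% in the AEG-1DMAC-labelled library became 20.4% (L limit of 10), 23.0% (10000 counts), 44.6% (median hepatocyte share) and 20.9% (leukocyte markers), and 63.5% in the AEG-1fl/fl-labelled library became 73.6% (L limit of 3), 49.5% (L limit of 10), 52.3% (without Itgax) and 69.1% (median hepatocyte share).

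The log2 ratio of Mtdh between libraries, 2.51, was 2.12 after thinning to 3000 counts, 3.37 at the median hepatocyte share and 3.70 with the hepatocyte profile subtracted. Thinning, smaller selections of cells and other filters change how many genes have enough counts to be tested. The numbers of genes past 2-fold here and in the next paragraph are therefore partly over different sets of genes, and their shares are not given. The 57 genes past 2-fold higher became 17 after thinning, 266 with the profile subtracted, and 243 and 3 with filters of 20 and 500 summed counts. The 134 lower became 62 (thinned), 228 (median hepatocyte share), 223 (leukocyte markers), 385 (profile subtracted), and 606 and 23 (filters). The median of the lipid-associated program, -0.40, was -0.60 at the median hepatocyte share and -0.76 with low leukocyte markers, and that of Kupffer genes, 0.27, was 0.43 and 0.03.

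Of members over L-low macrophages, the 137 genes higher in both libraries became 208 (10000 counts), 15 (thinned), 32 (median hepatocyte share), 74 (leukocyte markers), 49 (total without genes higher in hepatocytes), 76 (mean over cells), and 210 and 34 (filters). The 59 lower became 17 (L limit of 3), 108 (10000 counts), 5 (thinned), 34 (without Itgax) and 9 (median hepatocyte share). They became 516 (total without genes higher in hepatocytes), 31 (mean over cells), 159 and 17 (filters), and 244 with low stellate and endothelial markers. Among ratios past 2-fold the sign turned for Ccl4 between libraries (-0.47 with low stellate and endothelial markers, -0.44 without the cell highest in the gene), for Uhrf1 (-0.40 at the median hepatocyte share), and in members over L-low cells with low leukocyte markers for Plac8 (0.94) in the AEG-1fl/fl-labelled and Gbp2b (0.51) in the AEG-1DMAC-labelled library. Of 1779 recomputations of 119 ratios of named genes, 1258 stayed within the counting interval, 516 moved beyond it with the same sign or without a call, and 5 turned. The cause of these moves was not tested. The settings on stellate and endothelial markers, on weights per bin and on the highest cell were chosen after seeing the data. No paired analysis was possible because each genotype had 1 library. Depth limits genes with few counts in the 72 AEG-1DMAC-labelled members most.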

Other observations

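Counts of several inducible genes were gathered in single members. In the AEG-1DMAC-labelled library 1 cell held 107 of the 255 counts of Atf3, 1 held 199 of the 606 counts of Hmox1 and 1 held 18 of the 32 counts of Tnf. Without the highest cell of each library Atf3 was still higher in members than in L-low macrophages, by 2.55 and 2.47, and its log2 ratio between libraries was -0.52.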
